A study of Saccharomyces cerevisiae with 12 samples.

Results

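Yeast RNA sampled at 1 day of a stationary phase course was compared with RNA sampled at 7 and 9 hours, in a strain lacking USV1 and in wild type. The comparison used 6 of the 12 arrays of the series, chosen by the time and strain in their titles. These were 2 arrays at 1 day (1 delUSV1, 1 wild type) and 4 arrays at 7 and 9 hours (2 delUSV1, 2 wild type). The deletion strain is labelled delUSV1 (USV1 is the open reading frame YPL230W) and the other DBY8778(wt). The labels give neither the background, mating type or medium of the strains nor the event from which the hours were counted. Each array set the total RNA of 1 sample against a reference RNA in a second colour. With 1 array per strain and time, and no label that names separate cultures, no p-value measures the spread between cultures. For 1 day against 7 and 9 hours, p-values measure the spread between 7 and 9 hours and the difference between strains in the 1-day change. For that strain difference itself, they measure only the change from 7 to 9 hours within each strain.

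When budding yeast uses up its glucose it stops fermenting, pauses, and then grows slowly by respiring the ethanol and acids it has made, a change called the diauxic shift. Transcripts for ribosomes, for making ribosomes and for glycolysis are known to fall at that point, while those for respiration, gluconeogenesis, storage carbohydrates and stress protection rise. As the remaining carbon is used up, cells stop budding and enter stationary phase, where walls are thickened and nutrients are scavenged.

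Before centring, array medians ranged from -0.11 to -0.02, and all 6 arrays were shifted to a median of 0. Between 5931 and 6085 of the 6100 open reading frames had a value on an array, and the SD over genes lay between 1.17 and 1.46. All values below are log2 ratios of sample to reference, or differences between them. The direction of the ratio is likely rather than known: it was read from USV1, which was lower in delUSV1 at all 5 times that both strains share. USV1, which encodes a zinc finger protein, stood at -0.29 in delUSV1 and 2.59 in wild type at 1 day. At 7 and 9 hours it stood at 1.14 and -0.98 in delUSV1 and at 4.40 and 3.94 in wild type. Because the direction rests on this gene, it does not check the labels. The 1-day change of USV1 was -1.58 in wild type and -0.37 in delUSV1, where the gene is labelled as deleted. The fitted change of -0.97 (SE 0.50) pools both strains and did not pass the test (adjusted p = 0.426, limma). It is therefore no measure of the change in wild type alone.

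Few genes were called between 1 day and 7 and 9 hours. A gene was called at a Benjamini-Hochberg adjusted p under 0.05 in limma, with strain as a block. Of 5965 genes tested, 12 were called (0.201%), 7 of them higher at 1 day (0.117%) and 5 lower (0.0838%). The 7 that rose were YDL218W, SPS100, PMA2, GAP1, NCA3, URA2 and GPP1. The 5 that fell were CHA1, EGT2, DSE1, DLD1 and MPC2. At an unadjusted p under 0.05, 429 genes were higher (7.19%) and 349 lower (5.85%). Each of the 6 arrays mattered to the count. It was 2 without the delUSV1 1-day array, 2 without the delUSV1 7-hour array, 6 without the wild-type 1-day array, 7 without the wild-type 9-hour array, 41 without the wild-type 7-hour array and 73 without the delUSV1 9-hour array. It was 33 after quantile normalization and 0 without variance moderation. In bulk RNA, fewer cells that express a gene and less of its RNA per cell cannot be told apart.

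**Figure D1:**
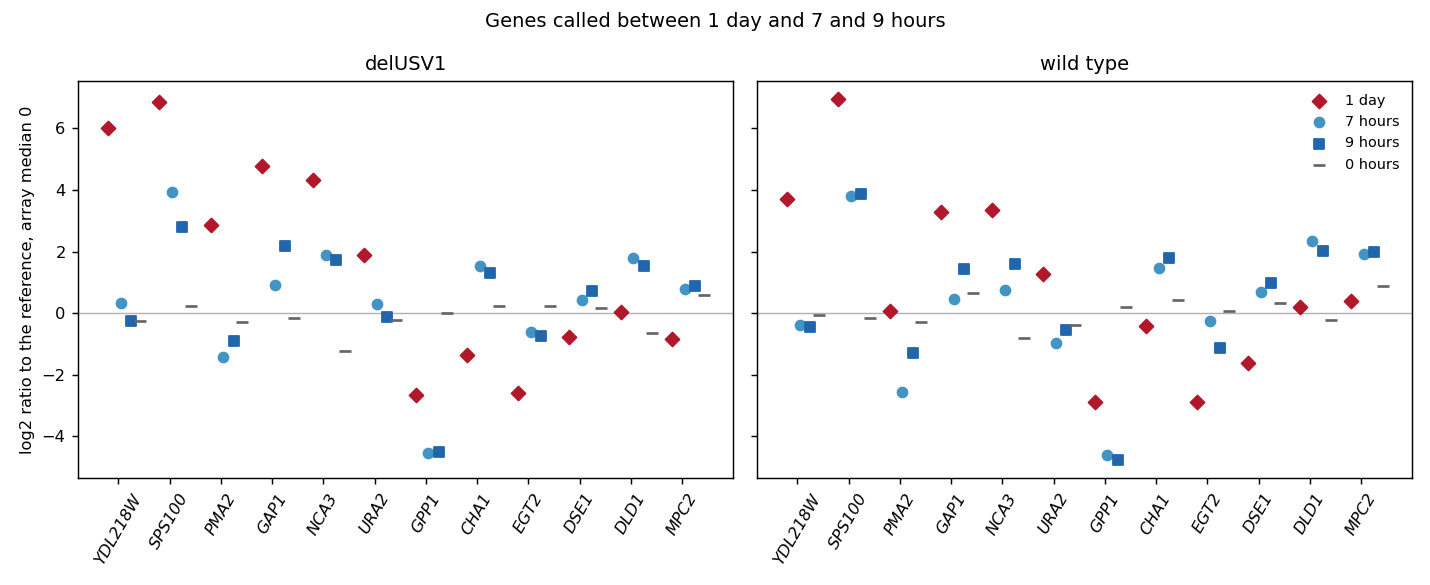
Centred log2 ratio to the reference RNA (y axis) of the 12 genes called between 1 day and 7 and 9 hours (x axis), in delUSV1 (left) and wild type (right). Diamonds are the 1-day arrays, circles 7 hours, squares 9 hours and dashes 0 hours, 1 array each; for every gene shown the diamond lies outside the circle and the square in both strains, with YDL218W at 6.01 and 3.70 and SPS100 at 6.87 and 6.95.

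The largest rise was that of YDL218W, which has no standard name in the gene table used. It stood at 6.01 in delUSV1 and 3.70 in wild type at 1 day, against 0.33 and -0.26 in delUSV1 and -0.37 and -0.44 in wild type at 7 and 9 hours. Both 1-day arrays were far above all 4 earlier arrays, which did not differ from the 0-hour values of -0.25 and -0.05 by as much as 1 on the log2 scale. The change was 5.04 (SE 0.40, adjusted p = 9.95e-05), or 32.9-fold. SPS100, which encodes a protein of spore wall maturation, stood at 6.87 in delUSV1 and 6.95 in wild type at 1 day. Its values at 7 and 9 hours were 3.92 and 2.79 in delUSV1 and 3.79 and 3.88 in wild type, against 0.24 and -0.17 at 0 hours. Unlike YDL218W, it was thus already high at 7 hours and higher again at 1 day, by 3.31 (SE 0.34, adjusted p = 0.00115). The SPS100 frame overlaps the noncoding transcript SUT169, and the values do not say which strand was measured. The list of 14 meiosis and sporulation markers tested had no called member and a median change of -0.08 (0.36 in delUSV1, -0.37 in wild type). Of the 14 changes, 10 were above 0 in delUSV1 and 3 in wild type, so the list did not rise in both strains as SPS100 did. YGP1, which encodes a related secreted glycoprotein and was picked after its values were seen, had an estimate of -0.73 (SE 0.39, adjusted p = 0.441).

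Among transporters at the plasma membrane, PMA2 and GAP1 rose. PMA2 encodes a minor proton pump whose relative PMA1 carries most of the activity. It stood at 2.87 in delUSV1 and 0.07 in wild type at 1 day, against -1.42 and -0.90 in delUSV1 and -2.56 and -1.28 in wild type at 7 and 9 hours. Within each strain the 1-day value was the higher, by 3.01 over both (SE 0.47, adjusted p = 0.0187), but the wild-type 1-day value was close to the array median. PMA1, picked after its values were seen, had an estimate of 0.03 (SE 0.53), with 1-day changes of -1.09 in delUSV1 and 1.14 in wild type. Transcripts of so similar a pair can cross-hybridise on spotted probes, so both genes' values are uncertain, as for GPP1 with GPP2, HXT6 with HXT7 and the PDC genes below. GAP1 encodes the general amino acid permease, which yeast represses while a good nitrogen source is present. It stood at 4.77 in delUSV1 and 3.28 in wild type at 1 day, against 0.91 and 2.17 in delUSV1 and 0.46 and 1.42 in wild type at 7 and 9 hours. The values at 0 hours were -0.17 and 0.66, so GAP1 was highest at 1 day in both strains among these 4 times. The 1-day rise was 2.79 (SE 0.41, adjusted p = 0.0187).

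GAP1 was the called member of the list of genes that good nitrogen sources repress, of which 22 were tested. The median change of that list was 0.21 against 0.03 over all genes. In it 4 members were higher at an unadjusted p under 0.05 and 0 lower, against 7.19% and 5.85% over all genes. The other 3 of those members, picked after their values were seen, were DAL80, DUR12 and GLN1, with estimates of 1.56, 1.23 and 0.85. DAL80, which encodes a repressor of the same genes, stood at 2.03 in delUSV1 and 1.57 in wild type at 1 day. At 7 and 9 hours it stood at 0.78 and -0.28 in delUSV1 and at 0.17 and 0.29 in wild type, so both 1-day values lay above the other 4 (adjusted p = 0.109, not called). DUR12, which encodes urea amidolyase, stood at 1.91 in delUSV1 and 0.31 in wild type at 1 day, and most of its difference came from delUSV1. The transcription factor genes GLN3 and GAT1 had estimates of -0.27 (SE 0.31) and 0.38 (SE 0.33).

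NCA3, URA2 and GPP1 also rose. NCA3 belongs to the SUN family of wall proteins and stood at 4.33 in delUSV1 and 3.35 in wild type at 1 day, against 1.88 and 1.71 in delUSV1 and 0.74 and 1.58 in wild type at 7 and 9 hours. It was below the reference RNA at 0 hours (-1.24 and -0.81) and its 1-day rise was 2.36 (SE 0.32, adjusted p = 0.00929). Its relative SUN4 moved the other way, with an estimate of -1.60 (SE 0.30, adjusted p = 0.0514, not called) and 1-day values of -3.04 in delUSV1 and -3.20 in wild type. The remaining members SIM1 and UTH1 had estimates of -0.29 and 0.30. URA2 encodes the enzyme of the early steps of pyrimidine synthesis. It stood at 1.88 in delUSV1 and 1.26 in wild type at 1 day, against 0.30 and -0.13 in delUSV1 and -0.96 and -0.54 in wild type at 7 and 9 hours. That was a rise of 1.90 (SE 0.30, adjusted p = 0.0187), to above the 0-hour values of -0.23 and -0.40. None of the 7 other pyrimidine genes looked at, URA1, URA3, URA4, URA5, URA7, URA10 and the uracil permease gene FUR4, was called, and their estimates ran from -0.93 to 0.77.

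GPP1 encodes a glycerol-3-phosphate phosphatase, which makes glycerol. It stood at -2.67 in delUSV1 and -2.90 in wild type at 1 day, against -4.55 and -4.50 in delUSV1 and -4.61 and -4.77 in wild type at 7 and 9 hours. The 4 earlier values had an SD of 0.12, and the rise of 1.82 (SE 0.28, adjusted p = 0.0187) left GPP1 well below its 0-hour values of 0.01 and 0.19. After quantile normalization the estimate was 1.32 and not called (adjusted p = 0.108). GPP2, its near-identical partner, had an estimate of 0.56 (SE 0.33), and GPD1, which encodes the enzyme that acts before them, one of 1.01 (SE 0.29, adjusted p = 0.205). Neither passed the test.

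Of the genes that fell, CHA1 encodes the serine and threonine deaminase that lets yeast use these amino acids as nitrogen. It stood at -1.35 in delUSV1 and -0.43 in wild type at 1 day, against 1.54 and 1.30 in delUSV1 and 1.46 and 1.78 in wild type at 7 and 9 hours. All 4 earlier values were above, and both 1-day values below, the 0-hour values of 0.22 and 0.42, and the change was -2.41 (SE 0.30, adjusted p = 0.00607). DLD1 encodes the mitochondrial D-lactate dehydrogenase and stood at 0.03 in delUSV1 and 0.20 in wild type at 1 day, against 1.78 and 1.52 in delUSV1 and 2.33 and 2.03 in wild type at 7 and 9 hours. Its change was -1.80 (SE 0.29, adjusted p = 0.0221).

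MPC2 encodes a subunit of the carrier that takes pyruvate into mitochondria, the one used during fermentation. It stood at -0.85 in delUSV1 and 0.38 in wild type at 1 day, against 0.78 and 0.87 in delUSV1 and 1.92 and 1.97 in wild type at 7 and 9 hours. In neither strain did the 1-day value overlap with the earlier ones, wild type was higher at each time, and the change was -1.62 (SE 0.28, adjusted p = 0.0344). The alternative subunit gene MPC3 was high at all these times (5.62 in delUSV1 and 5.10 in wild type at 1 day) with an estimate of -0.89, and MPC1 had one of -0.22. CYB2, the L-lactate dehydrogenase gene, and JEN1, the lactate and pyruvate carrier gene, had estimates of -1.83 (SE 0.59) and -0.92 (SE 0.30). The change in CYB2 was -2.91 in wild type and -0.75 in delUSV1. Its delUSV1 value at 1 day, 3.10, lay between those at 7 hours (4.90) and 9 hours (2.79). These companions were picked after their values were seen and none was called.

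EGT2 and DSE1, the other called genes that were lower at 1 day, are cell separation genes. Daughter cells express such genes after division and use their products to part from the mother wall. EGT2 stood at -2.59 in delUSV1 and -2.87 in wild type at 1 day, against -0.61 and -0.73 in delUSV1 and -0.24 and -1.14 in wild type at 7 and 9 hours. The change was -2.05 (SE 0.32, adjusted p = 0.0187). DSE1 stood at -0.78 in delUSV1 and -1.61 in wild type at 1 day, against 0.42 and 0.72 in delUSV1 and 0.68 and 0.99 in wild type at 7 and 9 hours. Its change was -1.90 (SE 0.33, adjusted p = 0.0344), and its values were above the array median at both earlier times.

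The set was widened, after the values were seen, to 6 cell separation genes by adding CTS1 (chitinase), DSE2, DSE4 and SCW11 (glucanases and wall proteins). All 6 were lower at 1 day in both strains, with changes between -2.05 and -1.20, though only 2 were called. All 6 had an unadjusted p under 0.05 in limma, against 5.85% lower over all genes. Because the set was chosen with these values known, that count is a description and not a test. Their 1-day values ran from -2.87 to -0.78, their values at 7 and 9 hours from -1.17 to 0.99, and their values at 0 hours from -0.07 to 1.02. CTS1 stood at -1.67 in delUSV1 and -2.57 in wild type at 1 day, against 0.52 and -0.65 in delUSV1 and -0.23 and -0.41 in wild type at 7 and 9 hours (adjusted p = 0.0506). The plot of the cell separation genes shows the 1-day value lowest in each of them, while the order of the other times differed between genes.

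**Figure D2:**
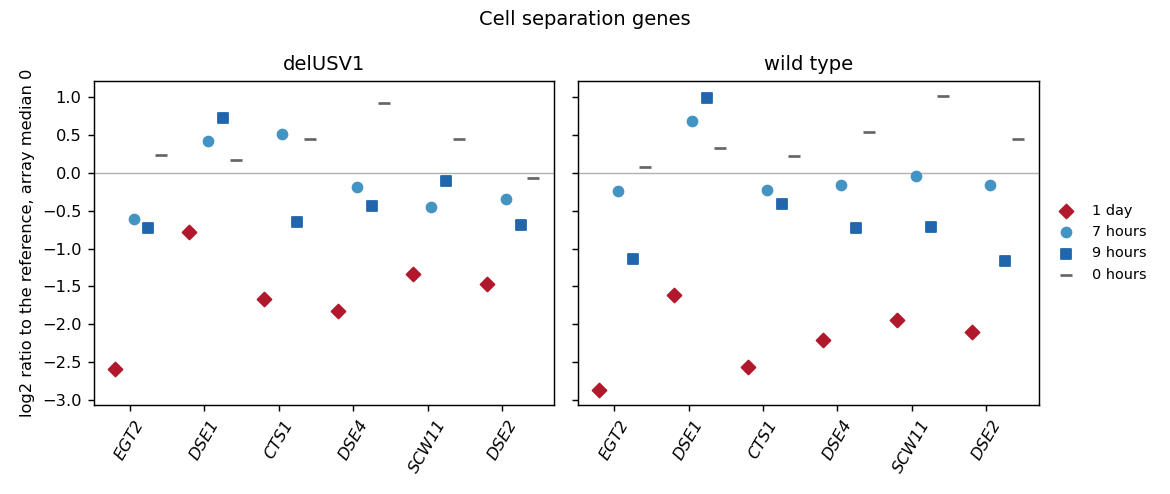
Centred log2 ratio to the reference RNA (y axis) of 6 cell separation genes (x axis), in delUSV1 (left) and wild type (right), with 1 marker per array for 1 day, 7 hours, 9 hours and 0 hours. In every gene and both strains the 1-day value is the lowest of the 4, between -2.87 and -0.78.

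The list of 39 cell wall genes had 2 called members, both lower (EGT2 and DSE1), against 0.0838% called lower over all genes. At an unadjusted p under 0.05, 11 were lower and 4 higher, against 5.85% and 7.19% over all genes, so the share that was higher was close to that of all genes. Its median was -0.29. The list shares EGT2 and DSE1 with the cell separation set above, so the counts of the list and of the set are not independent. Not all wall genes were lower at 1 day. NCA3, the SUN family gene called higher above (2.36), was not on this list, so the direction of the called members depends on its make-up. PIR3, which encodes a wall protein, stood at 3.71 in delUSV1 and 3.02 in wild type at 1 day, against 2.43 and 0.92 in delUSV1 and 1.98 and 0.75 in wild type at 7 and 9 hours. Its estimate was 1.84 (SE 0.44, adjusted p = 0.126). SPI1, also a wall protein gene, stood at 4.70 in delUSV1 and 6.41 in wild type at 1 day, against 6.71 and 5.70 in delUSV1 and 8.0 and 7.83 in wild type at 7 and 9 hours, with an estimate of -1.50 (SE 0.33, adjusted p = 0.109). Of 27 cell cycle and DNA replication genes tested, 0 were called, with 6 lower and 2 higher at an unadjusted p under 0.05 and a median of -0.10. The 2 were the ribonucleotide reductase genes RNR2 and RNR4, with estimates of 1.24 (SE 0.42) and 0.69 (SE 0.28). The 6 were the cyclin genes CLB1, CLB6, CLN1 and CLN2, the cyclin kinase inhibitor gene SIC1 and the replication clamp gene POL30, with estimates between -1.19 and -0.76. These genes were picked after their values were seen.

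A count without a test was added after the values were seen. It took the genes whose 1-day value lay at least 2-fold outside both the 7-hour and the 9-hour value of the same strain, to the same side in both strains. Of 5742 genes with all 6 values, 20 were higher by that measure (0.348%) and 15 lower (0.261%), including all 12 called genes. The higher ones not called were CDC19 (pyruvate kinase), EFB1 (a translation elongation factor), NOP58 (a small nucleolar particle protein), ERO1 (oxidative protein folding), TYE7 (a glycolytic transcription factor), DAL80, PHM6, LPX2, ZPR1, RTT102, YRO2, PIR3 and YGR079W. The lower ones not called were HXT7 (a high-affinity glucose transporter), GSY2 (glycogen synthase), RCF1 (a respiratory supercomplex factor), the mitochondrial ribosomal protein genes MRPS9 and MRPL38, CTS1, DSE4, SUN4, SPI1 and YCL042W. Their adjusted p lay between 0.0506 and 0.126. Without the 2-fold limit, 899 of the 5742 genes were higher and 898 lower by the same measure. HXT7 stood at 3.75 in delUSV1 and 3.42 in wild type at 1 day, against 5.35 and 5.06 in delUSV1 and 6.48 and 5.51 in wild type at 7 and 9 hours. HXT6, nearly identical in sequence, had an estimate of -1.20 beside -2.02 for HXT7. The YCL042W frame overlaps the glucokinase gene GLK1, whose own estimate was -0.96, and EFB1 holds the small nucleolar RNA gene SNR18.

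**Figure D3:**
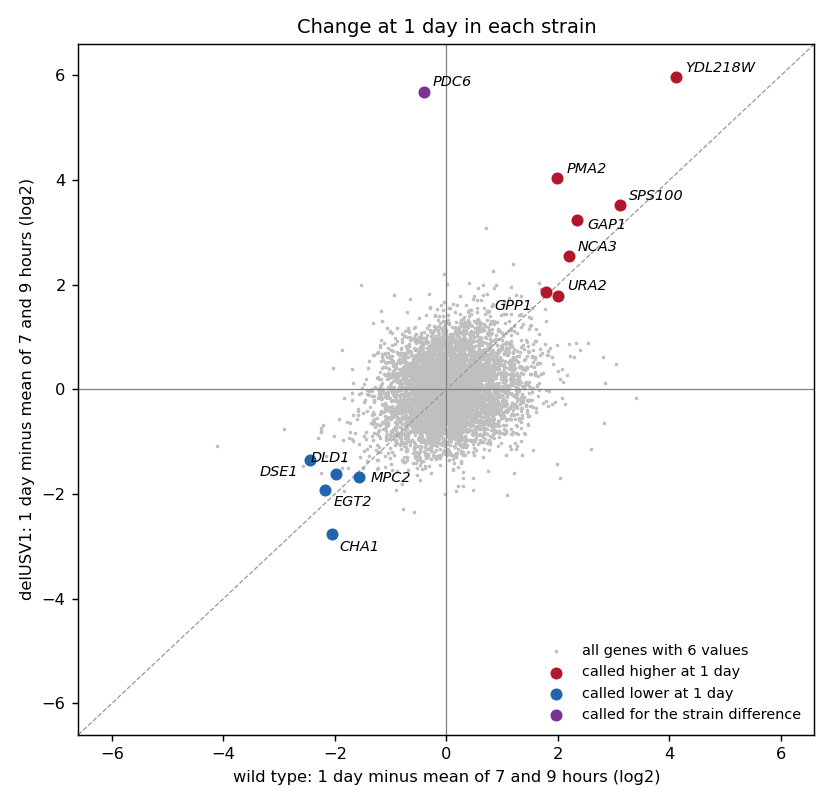
Difference between 1 day and the mean of 7 and 9 hours in delUSV1 (y axis) and in wild type (x axis), both in log2, for the 5742 genes with all 6 values (grey), with the 12 called genes and PDC6 in colour. The dashed line marks equal change; each called gene lies on the same side of 0 in both strains, whereas PDC6 lies at 5.69 in delUSV1 and -0.41 in wild type.

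Of the 39 gene lists looked at, 4 had a called member (cell wall, nitrogen, the SPG, SNZ and SNO genes with SPS100, and the proton pump family with PMA2), and 35 had none. What follows describes medians and counts. Of 74 ribosome biogenesis genes tested, 71 had an estimate above 0, against 3112 of 5965 over all genes. At an unadjusted p under 0.05, 27 were higher and 0 lower, against 7.19% and 5.85% over all genes. The median was 0.63 (0.36 in delUSV1, 0.86 in wild type), and in delUSV1 17 of 73 changes were below 0. This median was 0.39 after quantile normalization, 0.41 without the 7-hour arrays and 0.35 without the wild-type 1-day array. The list's median level was -1.41 in delUSV1 and -1.25 in wild type at 1 day, against -2.06 and -1.54 in delUSV1 and -2.31 and -2.12 in wild type at 7 and 9 hours. It was -0.06 and -0.47 at 0 hours, so 1 day lay between the earlier times and 0 hours. NOP58 gave the estimate with the smallest p of the list, 1.53 (SE 0.32, adjusted p = 0.0966). It stood at -1.99 in delUSV1 and -3.32 in wild type at 1 day, against -4.20 and -3.39 in delUSV1 and -4.54 and -4.60 in wild type at 7 and 9 hours.

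RNA polymerase I and III transcribe ribosomal and transfer RNA. All 20 subunit genes had an estimate above 0, against 3112 of 5965 over all genes, and none was called. For 8 of them the unadjusted p was under 0.05, against 7.19% higher over all genes. The median was 0.67, but 0.39 without the 7-hour arrays and 0.38 without the wild-type 1-day array. Within the strains it was 0.38 in delUSV1, where 8 of the 20 changes were below 0, and 0.94 in wild type. The list's median level was -1.33 in delUSV1 and -0.91 in wild type at 1 day, against -2.08 and -1.12 in delUSV1 and -1.82 and -1.67 in wild type at 7 and 9 hours. The 1-day level was thus the highest of these times in wild type, whereas in delUSV1 the 9-hour level was higher. Of 22 chaperone genes, 7 were higher at an unadjusted p under 0.05 and 0 lower, against 7.19% and 5.85% over all genes. The median of this list was 0.46. It was 0.77 without the 7-hour arrays and 0.07 without the 9-hour arrays. The list's median level was 0.62 in delUSV1 and 0.94 in wild type at 1 day, against 0.94 and 0.06 in delUSV1 and 1.02 and 0.66 in wild type at 7 and 9 hours, so 1 day lay above 9 hours and below 7 hours in both strains. The 7, looked at after their values were seen, included SSB2 and SSZ1, whose products sit on the ribosome and fold new chains, at 1.37 (SE 0.37) and 1.38 (SE 0.35), and YDJ1, a co-chaperone gene, at 1.35 (SE 0.32). YDJ1 stood at -0.48 in delUSV1 and -0.07 in wild type at 1 day, against -1.21 and -1.86 in delUSV1 and -1.54 and -1.91 in wild type at 7 and 9 hours.

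Glycolysis and fermentation genes had a median of 0.68 over 22 genes (0.70 in delUSV1, 0.26 in wild type), with 0 called. Of these genes, 11 were higher and 1 lower at an unadjusted p under 0.05, against 7.19% and 5.85% over all genes. The list's median level was -0.12 in delUSV1 and -0.45 in wild type at 1 day, against -0.87 and -0.82 in delUSV1 and -0.80 and -1.13 in wild type at 7 and 9 hours. CDC19, which encodes the main pyruvate kinase, stood at -1.46 in delUSV1 and -1.37 in wild type at 1 day, against -2.78 and -2.98 in delUSV1 and -2.72 and -2.70 in wild type at 7 and 9 hours. The strains were nearly alike in this gene, with an estimate of 1.38 (SE 0.28, adjusted p = 0.0737). The aldolase gene FBA1 had an estimate of 1.44 (SE 0.32), the phosphoglucose isomerase gene PGI1 one of 1.11 (SE 0.30), and the hexokinase gene HXK2 one of 1.22 (SE 0.36). FBA1 stood at 0.20 in delUSV1 and -0.77 in wild type at 1 day, against -1.67 and -1.43 in delUSV1 and -2.24 and -1.54 in wild type at 7 and 9 hours. The member that was lower was GLK1, a glucokinase gene that yeast represses on glucose, with values of 2.63 in delUSV1 and 2.01 in wild type at 1 day. These members were picked after their values were seen.

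Mitochondrial ribosomal protein genes, whose products make the mitochondrion's own translation machinery, stood lower at 1 day by nearly the same median in both strains. The fitted median was -0.49 over 59 genes tested (-0.45 in delUSV1, -0.49 in wild type), with 0 called. Estimates were below 0 for 54 of them, against 2845 of 5965 over all genes. In this list 15 were lower and 0 higher at an unadjusted p under 0.05, against 5.85% and 7.19% over all genes. The median level was 0.25 in delUSV1 and 0.23 in wild type at 1 day, against 0.81 and 0.71 in delUSV1 and 0.84 and 0.70 in wild type at 7 and 9 hours. It was 0.09 and 0.15 at 0 hours. MRPS9 stood at -0.67 in delUSV1 and -0.55 in wild type at 1 day, against 1.01 and 0.67 in delUSV1 and 0.85 and 0.51 in wild type at 7 and 9 hours (adjusted p = 0.101). With the deposited values, after quantile normalization, without the 7-hour or the 9-hour arrays and with each array left out, the median of the list lay between -0.54 and -0.45.

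**Figure D4:**
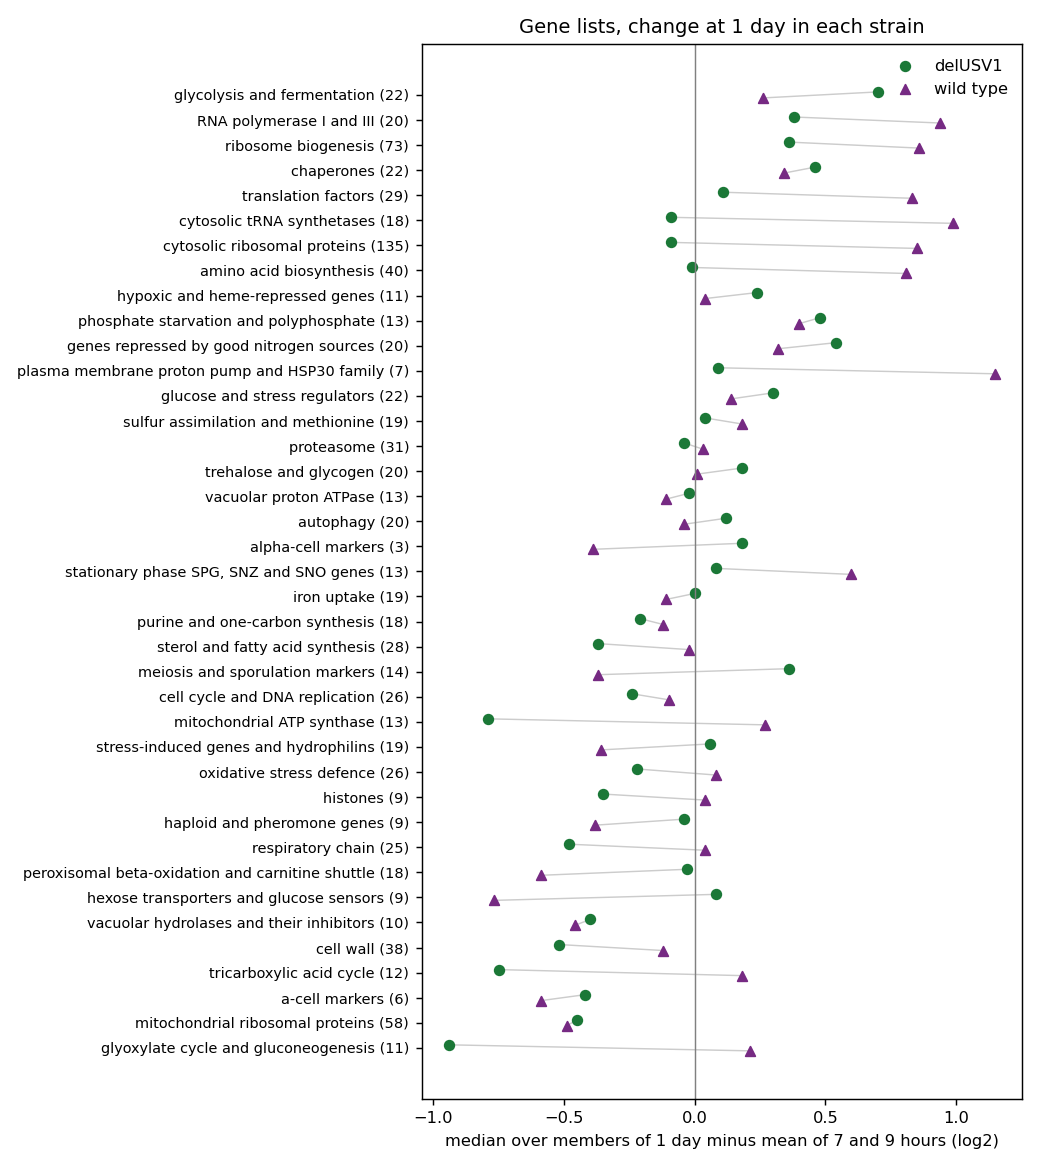
Median over the members of each of 39 gene lists of the difference between 1 day and the mean of 7 and 9 hours (x axis, log2), in delUSV1 (circles) and wild type (triangles), with the number of members that had all 6 values in brackets. Lists run from the highest to the lowest fitted median; mitochondrial ribosomal proteins have nearly the same value in both strains (-0.45 and -0.49), whereas cytosolic ribosomal proteins have -0.09 and 0.85.

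In some other lists the median of the 1-day change was above 0 in wild type and close to 0 in delUSV1. Over all genes it was 0.03 in wild type and -0.02 in delUSV1. Cytosolic ribosomal protein genes had a median of -0.09 in delUSV1 and 0.85 in wild type over 135 genes. Of the 135, 119 had the lower change in delUSV1, against 3021 of 5742 over all genes. Their median level was -2.75 in delUSV1 and -2.25 in wild type at 1 day, against -2.93 and -2.28 in delUSV1 and -3.49 and -2.71 in wild type at 7 and 9 hours. The pooled median of 0.40 was 0.05 after quantile normalization, 0.84 without the delUSV1 1-day array and -0.10 without the wild-type 1-day array. Paired ribosomal protein genes can share probe signal. The 18 cytosolic tRNA synthetase genes had -0.09 in delUSV1 and 0.99 in wild type, and 40 amino acid biosynthesis genes -0.01 in delUSV1 and 0.81 in wild type.

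Among lists that serve growth on carbon sources other than glucose, some had a median below 0 in delUSV1 and above 0 in wild type. Glyoxylate cycle and gluconeogenesis genes had a median of -0.94 in delUSV1 and 0.21 in wild type over 11 genes. Tricarboxylic acid cycle genes had -0.75 in delUSV1 and 0.18 in wild type over 12, and mitochondrial ATP synthase genes -0.79 in delUSV1 and 0.27 in wild type over 13. Respiratory chain genes had -0.48 in delUSV1 and, close to 0, 0.04 in wild type over 25. For the glyoxylate list the median level was 4.44 in delUSV1 and 4.33 in wild type at 1 day, against 4.77 and 5.82 in delUSV1 and 2.93 and 5.04 in wild type at 7 and 9 hours. The strains were close at 1 day and farther apart at 7 hours, and the fitted median of the list, -0.68, was -1.18 without the 7-hour arrays and 0.28 without the 9-hour arrays. PCK1, the gluconeogenic enzyme gene, stood at 5.06 in delUSV1 and 3.51 in wild type at 1 day, against 5.39 and 5.87 in delUSV1 and 4.88 and 6.0 in wild type at 7 and 9 hours (estimate -1.25, SE 0.40, adjusted p = 0.218). Peroxisomal beta-oxidation and carnitine shuttle genes had -0.03 in delUSV1 and -0.59 in wild type over 18 genes. The change was higher in delUSV1 in 15 of them, against 2707 of 5742 over all genes. Hexose transporter and glucose sensor genes also went the other way, with 0.08 in delUSV1 and -0.77 in wild type over 9 genes. None of these differences between list medians was tested.

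**Figure D5:**
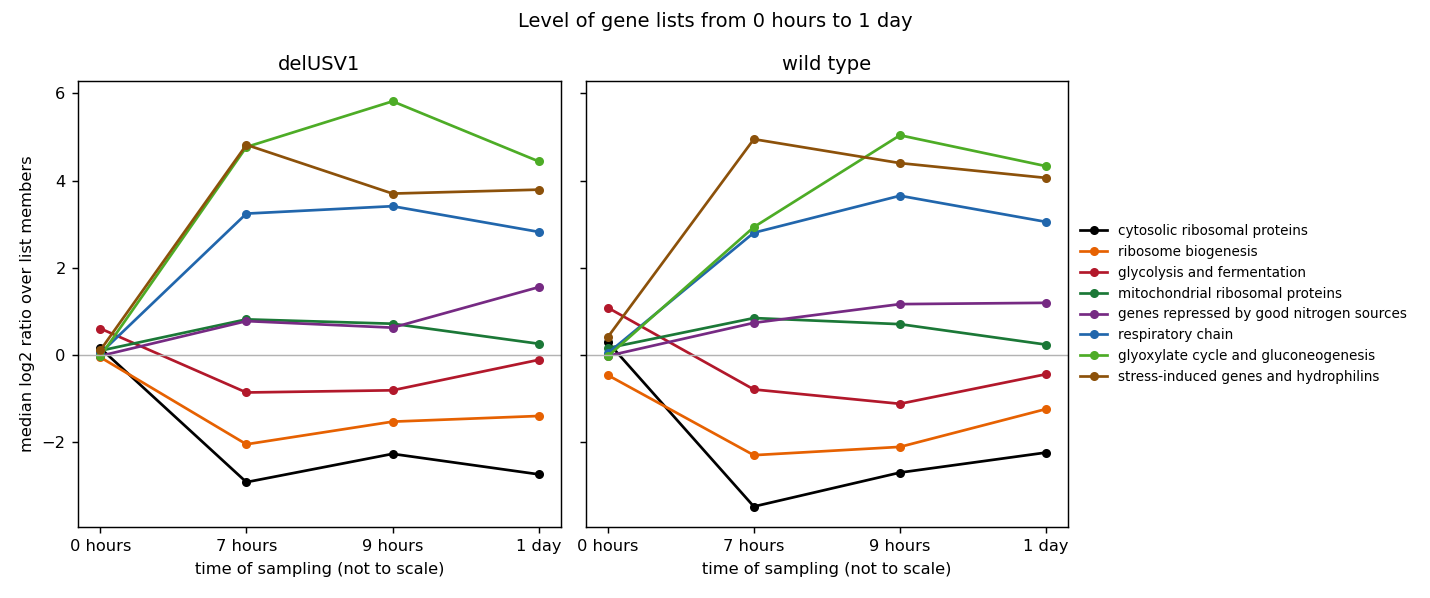
Median log2 ratio to the reference RNA over the members of 8 gene lists (y axis) at 0 hours, 7 hours, 9 hours and 1 day (x axis, not to scale), in delUSV1 (left) and wild type (right), 1 array per point. Ribosome biogenesis and glycolysis end nearer to 0 at 1 day (-1.41 and -0.12 in delUSV1, -1.25 and -0.45 in wild type) than at 7 hours. The respiratory chain does so in delUSV1 (3.24 at 7 hours, 2.82 at 1 day) but not in wild type (2.80 at 7 hours, 3.05 at 1 day).

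The test of the strain difference itself (the 1-day change of delUSV1 minus that of wild type) called 1 of 5742 genes (0.0174%), and 503 had an unadjusted p under 0.05 (8.76%). The called gene was PDC6, which encodes a minor isozyme of pyruvate decarboxylase known to be induced when sulfur is scarce. PDC6 stood at 4.74 in delUSV1 and -0.64 in wild type at 1 day, against -1.22 and -0.68 in delUSV1 and -0.39 and -0.07 in wild type at 7 and 9 hours. Among the 6 arrays a high value thus appeared on the delUSV1 1-day array alone, and the difference was 6.10 (SE 0.58, adjusted p = 0.00357). Without variance moderation it was not called (adjusted p = 0.698). The isozyme genes PDC1 and PDC5, which are similar in sequence, stood at -2.24 and -2.50 on that array. The sulfate permease genes SUL2 and SUL1 stood at 1.54 and 0.36 there, and 19 sulfur assimilation and methionine genes with all 6 values had a median 1-day change of 0.04 in delUSV1 and 0.18 in wild type.

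The next genes by p in that test were AQY1 (a water channel), CIT3 (a mitochondrial citrate synthase), SUL2, TKL1 (transketolase) and TIF1 (a translation initiation factor), all with an adjusted p of 0.558. AQY1 stood at 2.71 in delUSV1 and 1.08 in wild type at 1 day, against 1.26 and 0.16 in delUSV1 and 2.48 and 2.75 in wild type at 7 and 9 hours. TKL1 stood at -3.10 in delUSV1 and -1.26 in wild type at 1 day, against -3.03 and -1.89 in delUSV1 and -4.45 and -3.70 in wild type at 7 and 9 hours. In neither was the difference past the threshold. Of the 12 called genes, YDL218W had a strain difference of 1.87 (SE 0.57) and PMA2 one of 2.04 (SE 0.74), both with an adjusted p of 0.558.

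Between 9 and 7 hours limma called 0 of 5742 genes (0%), with 312 at an unadjusted p under 0.05 (5.43%), and a fit without variance moderation called 1. The gene with the smallest p was PUT4, which encodes a proline permease repressed by good nitrogen sources. It stood at 4.07 in delUSV1 and 3.81 in wild type at 9 hours, against 1.65 and 1.48 at 7 hours, and at 3.45 and 3.43 at 1 day. The difference of 2.38 (SE 0.34, adjusted p = 0.0595) was not called, and both strains gave nearly the same values at each time. ERG3, the sterol desaturase gene, and MLS1, the malate synthase gene of the glyoxylate cycle, followed with 1.76 (SE 0.35) and 2.36 (SE 0.54). RMI1, which encodes a DNA repair protein, and RPL10, a ribosomal protein gene, had 1.67 (SE 0.39) and 1.51 (SE 0.38).

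Single arrays within a strain show how much of the table stood at least 2-fold apart between times, without a test. Between 1 day and 9 hours that was 11.7% of genes in delUSV1 and 10.2% in wild type, and between 1 day and 7 hours 14.3% in delUSV1 and 17.5% in wild type. Between 9 and 7 hours it was 7.41% in delUSV1 and 6.81% in wild type. These shares were small beside those against 0 hours, which in delUSV1 were 40.2% for the 7-hour array, 31.5% for the 9-hour array and 40.3% for the 1-day array. In wild type they were 41% for the 7-hour array, 40.2% for the 9-hour array and 32.4% for the 1-day array. In delUSV1 the share against 0 hours was thus lowest at 9 hours, and in wild type at 1 day. Those arrays also had the smallest SD over genes of their strain among these times. It was 1.17 at 9 hours in delUSV1, against 1.43 at 7 hours and 1.31 at 1 day. In wild type it was 1.21 at 1 day, against 1.46 at 7 hours and 1.41 at 9 hours. Centring does not adjust this spread, and its part in the shares was not tested.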

How the data were processed

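The authors deposited a table of log2 ratios, 1 per open reading frame and array, each of sample RNA to a reference RNA. Base 2 of the logarithm is an assumption. Their scale, centring, direction, dyes, scanner software and normalization were not given in the sources used here. No intensities were used, so precision is limited by the number of arrays and depth does not apply. Columns were matched to samples by their titles, with 0 columns of other samples. A RefSeq table of assembly R64 named 5592 of the 6100 frames, and 508 keep their systematic name.

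Arrays were centred on their medians (to 0). limma 3.58.1 (lmFit and eBayes, R 4.3.3) was fitted to the 6 arrays with strain as a fixed block. A gene needed both 1-day values and at least 3 of the 4 values at 7 and 9 hours, or all 6 for the strain difference (an interaction term, 2 residual degrees of freedom) and for 9 against 7 hours. P-values were two-sided and adjusted by Benjamini-Hochberg over all genes tested. SE is the moderated standard error. The fits were checked on simulated data.

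The comparison and the 39 lists (953 of 978 entries on the table) were chosen with earlier results of these data known. Named genes were USV1, then up to 15 called genes a direction whose 1-day value lay outside the earlier values in both strains, up to 2 called members a direction per list, and, where nothing was called, the 5 with the smallest p. Because PDC6 alone was called for the strain difference, the next by p were added after their values were seen. So were all other genes. Alternatives were the deposited values, quantile normalization, a robust prior, no moderation, other thresholds, other sets of arrays and other models. Promoter motifs were planned and not analysed here.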

Additional observations from a re-analysis of the deposited data

Results flagged for a closer look

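Among the 4 arrays at 7 and 9 hours, the delUSV1 9-hour array stood apart from the other 3 for SPS100, with 2.79 against values of 3.79 to 3.92. The test for a value far from the others was made for 14 genes, and chance flags about 1 in 20 groups. For PDC6 the 1-day change of delUSV1 minus that of wild type was 6.10, which passed the test of the difference itself. The value behind it is that of 1 array, and no second sample of that strain and time was analysed here.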

How the results depend on the processing

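The number of calls between 1 day and 7 and 9 hours, 12, stayed within 1.5 times with the deposited values, with genes that had all 6 values, with a further 2-fold limit, without the strain term (9 calls) and without the 7-hour arrays (9, of which 6 were among the 12). The count was 33 after quantile normalization, 20 with a robust prior, 22 with time as a factor of 3 levels, 73 without the 9-hour arrays, 25 at an adjusted p under 0.1 and 0 without variance moderation. The fit without variance moderation thus called none of the 12 genes, YDL218W included. It is not among the 12 alternatives counted by gene below. Leaving out 1 array at a time gave between 2 and 73 calls; where that left 1 array at 1 day, it was assumed to vary like the others. No called gene changed direction in 12 alternatives that refitted the genes one by one; YDL218W was called in all 12, SPS100 in 11, PMA2 and CHA1 in 10, GAP1 and NCA3 in 9, EGT2 in 8, URA2, DSE1, DLD1 and MPC2 in 7 and GPP1 in 6. The strain difference gave 0 calls without moderation, and 9 against 7 hours gave 1 without moderation and 1 at an adjusted p under 0.1. The 35 genes at least 2-fold apart in both strains became 85 without the 7-hour arrays and 183 without the 9-hour arrays, alternatives added after seeing the data that compare each 1-day value with 1 array fewer. For the other changes in count the cause was not tested. No paired analysis was possible because each strain and time has 1 array and the labels carry no replicate numbers; strain was the block. With 2 arrays at 1 day and 3 residual degrees of freedom, small changes are beyond what these arrays can show.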

Other observations

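Among stress-induced genes and hydrophilins, 19 of which were tested, 0 were called at 1 day against 7 and 9 hours, and the list stayed far above the reference RNA. Its median level was 3.79 in delUSV1 and 4.06 in wild type at 1 day, against 4.82 and 3.70 in delUSV1 and 4.95 and 4.40 in wild type at 7 and 9 hours. The members did not move as 1 group, with 3 higher and 5 lower at an unadjusted p under 0.05, against 7.19% higher and 5.85% lower over all genes. GRE1, a hydrophilin gene, stood at 7.43 in delUSV1 and 6.45 in wild type at 1 day, against 6.52 and 5.08 in delUSV1 and 4.96 and 6.27 in wild type at 7 and 9 hours. STF2, which encodes a hydrophilin, stood at 3.06 in delUSV1 and 4.06 in wild type at 1 day, against 4.98 and 3.70 in delUSV1 and 5.32 and 5.58 in wild type at 7 and 9 hours. The estimates were 1.23 (SE 0.45) for GRE1 and -1.33 (SE 0.36) for STF2. Of 20 trehalose and glycogen genes, 3 were higher and 3 lower by the same measure, against 7.19% and 5.85% over all genes. GSY2 and GLG2, for glycogen synthase and its primer protein, had estimates of -1.42 (SE 0.31) and -1.11 (SE 0.31), and NTH1, for neutral trehalase, one of 0.87 (SE 0.33).

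Of 13 phosphate starvation and polyphosphate genes tested, 3 were higher and 0 lower at an unadjusted p under 0.05, against 7.19% and 5.85% over all genes. The list's median of 0.27 was 0.07 without the 7-hour arrays and 0.04 after quantile normalization. PHO84, which encodes the high-affinity phosphate transporter, stood at -0.67 in delUSV1 and -0.94 in wild type at 1 day, against -1.34 and -1.48 in delUSV1 and -2.93 and -1.86 in wild type at 7 and 9 hours. Its estimate was 1.10 (SE 0.35, adjusted p = 0.218, limma). Markers of mating type a had a median of -0.41, with estimates below 0 for 5 of 6 genes, and of -0.10 without the 7-hour arrays. Their median level was -1.15 in delUSV1 and -0.66 in wild type at 1 day, against -0.04 and -1.0 in delUSV1 and 0.17 and -0.56 in wild type at 7 and 9 hours, so most of the difference was already present at 9 hours. BAR1, which encodes the protease that cleaves alpha factor, had an estimate of -1.39 (SE 0.37). BAR1 stood at -2.90 in delUSV1 and -1.80 in wild type at 1 day, against -0.98 and -1.77 in delUSV1 and 0.05 and -1.15 in wild type at 7 and 9 hours. The 3 alpha-cell markers tested had a median of 0.04 and 9 haploid and pheromone genes one of -0.20. None of these genes was called, and those named were picked after their values were seen.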
